A study of Mus musculus with 11 samples.

Results

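Integrin chains and the adaptors that couple them to the cell interior were described in sorted epidermal cells of the mouse. The 33 genes, of 55536 with an entry in the count tables, were taken by symbol. They comprised 7 chains best known from epithelium (Itga2, Itga3, Itga6, Itga9, Itgb4, Itgb6 and Itgb8) and 3 broadly expressed partners (Itgb1, Itgav and Itgb5). A further 8 are best known from vascular, mesenchymal or muscle cells (Itga1, Itga2b, Itga5, Itga7, Itga8, Itga10, Itga11 and Itgb3), and 8 from leukocytes (Itga4, Itgad, Itgae, Itgal, Itgam, Itgax, Itgb2 and Itgb7). The 7 adaptors were the talins Tln1 and Tln2, the kindlins Fermt1, Fermt2 and Fermt3, the pseudokinase Ilk and its partner Parva. All 33 had an entry and passed the low-count filter; Itgad passed only through the Sca-1+ tdT+ libraries, and Ilk stood near the floor.

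The study measured RNA by bulk sequencing in dorsal epidermal cells of male CD4Cre R26-tdT mice (C57Bl6/N). All mice, including those that gave the tdT- cells, carried a Cre recombinase driven by the CD4 promoter and a tdTomato reporter, so that a cell is tdT+ when it or an ancestor expressed that Cre. Cells of a CD49f+CD34+ gate were split by Sca-1 and by tdT into Sca-1+ tdT+ (3 libraries), Sca-1+ tdT- (2 libraries), Sca-1neg tdT+ (3 libraries) and Sca-1neg tdT- (3 libraries). Each library pooled 2 mice, aged 29 weeks for replicate 1 of every group and 32 weeks for all further replicates. CD49f is the product of Itga6, so every cell studied was chosen for surface protein from one of these genes, and Sca-1 was read as surface protein too.

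Integrins are receptors of 1 alpha and 1 beta chain each that bind extracellular matrix or counter-receptors on other cells. Basal keratinocytes hold on to the basement membrane through α6β4 (Itga6, Itgb4) in hemidesmosomes and through α3β1 (Itga3, Itgb1), both receptors for laminin-332. Talins and kindlins bind beta tails and switch integrins on, and the complex of Ilk and parvins links them to actin. Leukocytes use other pairs, such as LFA-1 (Itgal, Itgb2), VLA-4 (Itga4, Itgb1) and αEβ7 (Itgae, Itgb7), the last a receptor for E-cadherin carried by T cells that live in epithelia.

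Total counts per library ranged from 17409131 to 46542177. Basal keratinocyte markers summed to between 22484 and 40723 CPM (counts scaled to a common library total, with TMM factors) in every library. For the tdT transcript alone, CPM were scaled to the total count without TMM factors. Among Sca-1+ cells the tdT transcript had 224 to 307 CPM with tdT and 4.10 to 4.89 CPM without it. Among Sca-1neg cells, replicates 1 and 3 of the tdT+ group had 133 and 252 CPM, against 2.54 to 3.78 CPM in the tdT- group. The library labelled Sca-1neg tdT+ replicate 2 had 2.05 CPM (95% Clopper-Pearson interval 1.44 to 2.83, counting error only), which goes against its label. The same library held 8605 CPM of liver transcripts, Sca-1neg tdT+ replicate 1 held 17932 CPM and Sca-1neg tdT- replicate 2 held 11075 CPM, against 6.61 to 67.7 CPM elsewhere. Calls on the 33 genes that rest on these 3 libraries are given with and without them. So are most counts of the ligand and adhesion-complex lists. Leaving them out leaves 1 Sca-1neg tdT+ library, replicate 3, so such values in any comparison with that group rest on that library. In bulk samples, fewer cells of a type and less RNA per cell cannot be told apart, and the p-values below measure only the spread between these pools.

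Measured per kilobase of exon, the laminin receptors led in all 4 groups. Itga6 averaged 130 CPM per kb in Sca-1+ tdT+, 108 in Sca-1+ tdT-, 55.4 in Sca-1neg tdT+ and 61.9 in Sca-1neg tdT- libraries. Itgb4 averaged 108, 118, 81.7 and 102 CPM per kb and Itgb1 111, 150, 101 and 116 CPM per kb in the same order of groups. Itga3 averaged 77.0, 65.9, 42.4 and 68.8 CPM per kb. The kindlin of keratinocytes, Fermt1, lay between 17.6 and 26.2 CPM per kb, and Tln1, the widely expressed talin, between 28.1 and 44.9 CPM per kb. At the other end, the collagen receptor chain Itga11 and the leukocyte chain Itgad stayed at or below 0.36 CPM per kb in every group mean.

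**Figure D1:**
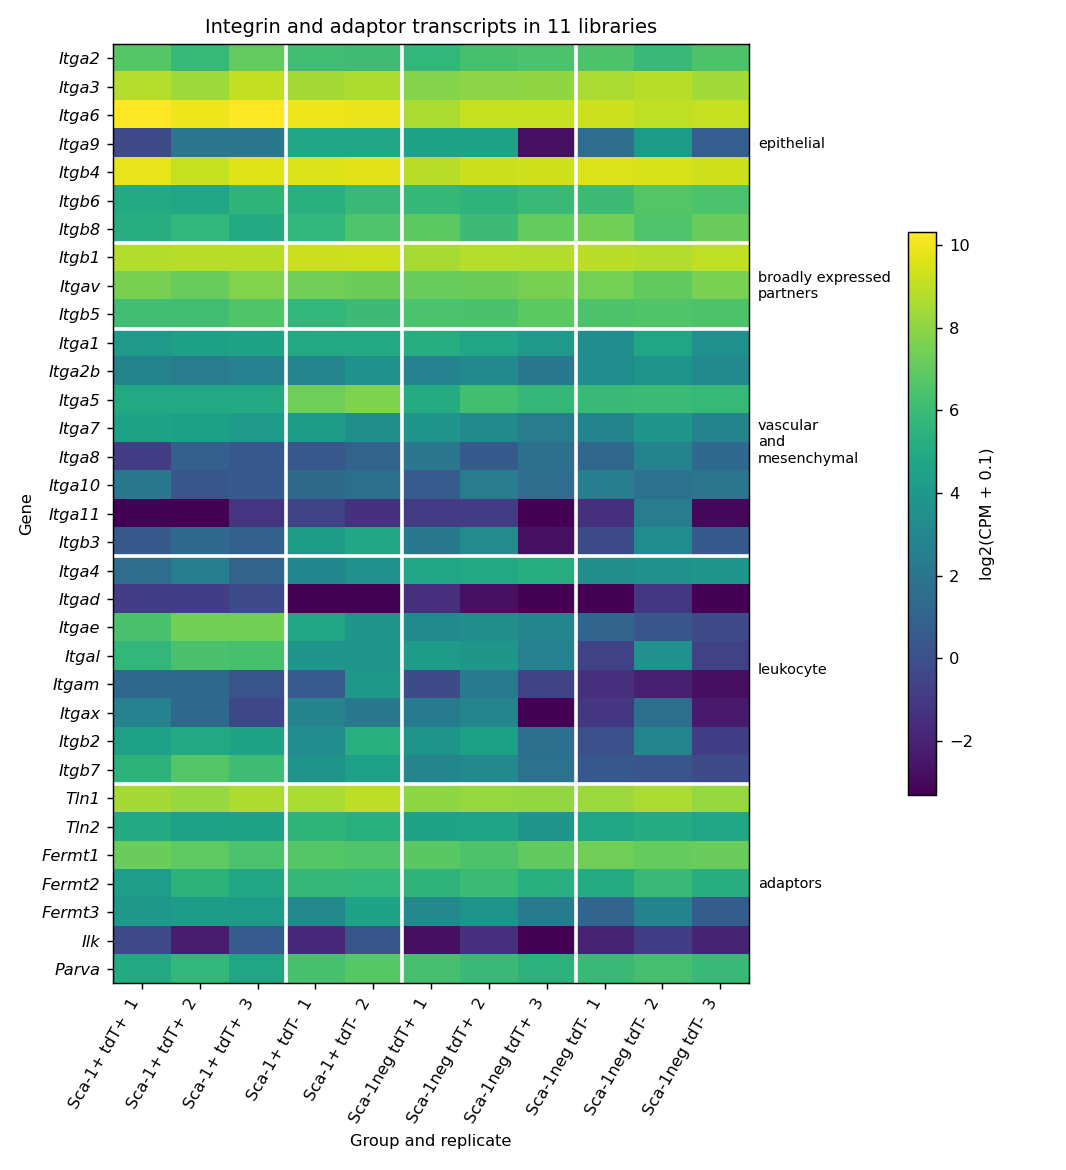
Level of each of the 33 genes in each of the 11 libraries, as log2(CPM + 0.1), with genes in rows by class and libraries in columns by group and replicate. Levels are not scaled by gene length, so colours compare libraries within a row; Itgae and Itgb7 are brightest in the 3 Sca-1+ tdT+ libraries and Itga5 in the 2 Sca-1+ tdT- libraries.

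The mix of chains varied between groups. Of all alpha chain transcripts (CPM per kb), Itga6 made up 48.3%, 43.5% and 41.7% in Sca-1+ tdT+ libraries, 44.9% and 40.0% in Sca-1+ tdT- libraries, 34.3%, 37.4% and 39.9% in Sca-1neg tdT+ libraries and 37.4%, 30.9% and 36.0% in Sca-1neg tdT- libraries. Itgae supplied between 6.39% and 15.03% of alpha chain transcripts in Sca-1+ tdT+ libraries, 2.26% and 1.13% in Sca-1+ tdT- libraries, 1.02% to 1.59% in Sca-1neg tdT+ libraries and at most 0.252% in Sca-1neg tdT- libraries. Itga5, the fibronectin receptor chain, supplied 12.5% and 16.3% in Sca-1+ tdT- libraries and between 1.90% and 9.04% elsewhere. Among beta chains, Itgb1 and Itgb4 together led every library, and Itgb7 held 5.83%, 13.6% and 8.08% in Sca-1+ tdT+ libraries, against 1.65% and 2.38% in Sca-1+ tdT- libraries. These shares are descriptions with no test.

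**Figure D2:**
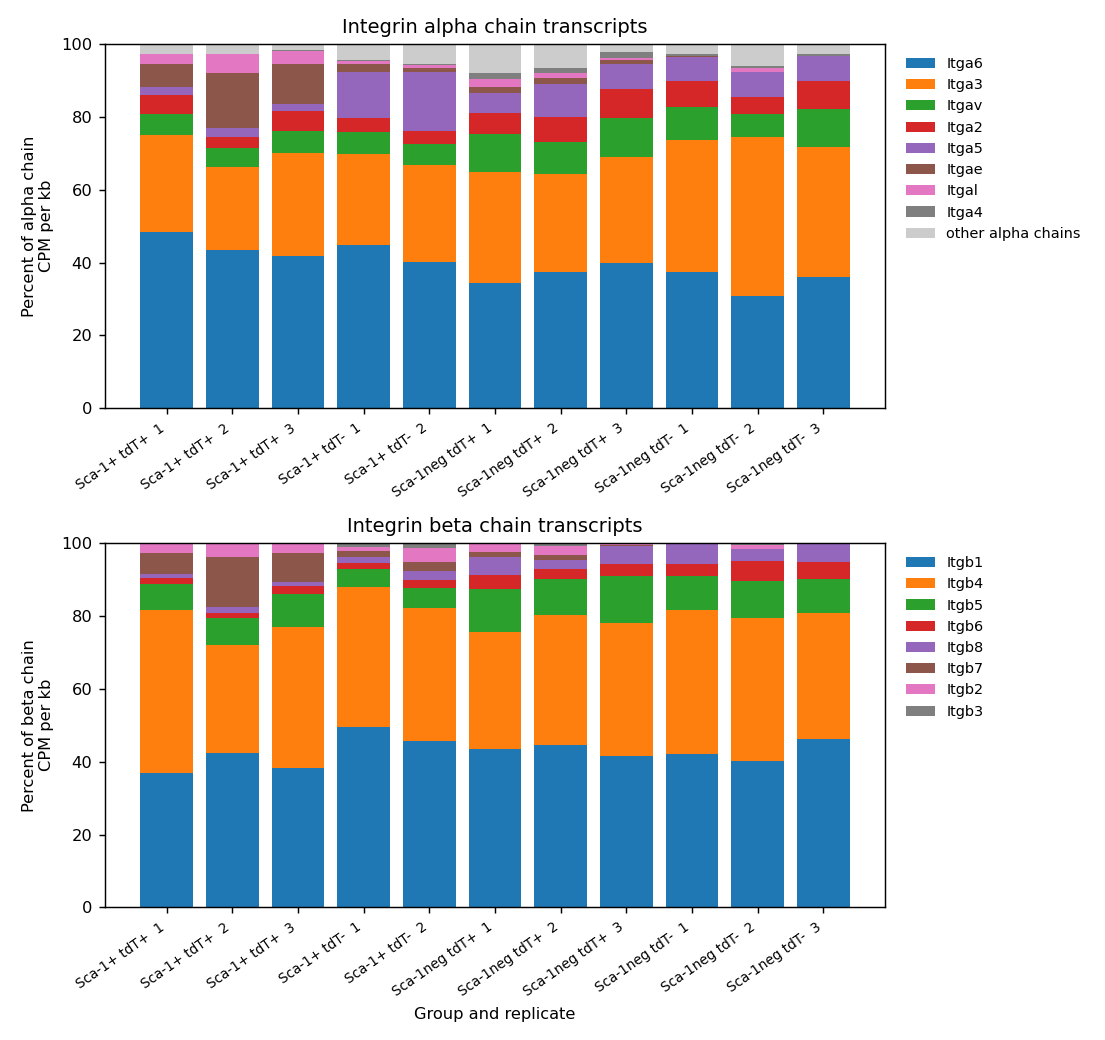
Share of each integrin chain in the summed CPM per kb of all alpha chains (top) and all beta chains (bottom), in percent, 1 bar a library in the order Sca-1+ tdT+, Sca-1+ tdT-, Sca-1neg tdT+, Sca-1neg tdT-. The Itgae band is widest in the 3 Sca-1+ tdT+ bars (6.39% to 15.03%) and the Itga5 band in the 2 Sca-1+ tdT- bars (12.5% and 16.3%).

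Within tdT+ cells, Sca-1+ tdT+ was compared with Sca-1neg tdT+. The epithelial chains Itga6 and Itga3 and the αEβ7 pair Itgae and Itgb7 were higher in Sca-1+ tdT+ cells, while Itga4, Itgb8 and Itga5 were lower. These 7 genes were 21.2% of the 33, beside 12.7% of the 20307 genes tested. The 4 higher genes stood beside a background of 5.94% called higher, and the 3 lower genes beside 6.73% called lower. The median log2 fold change was 0.12 over the 33 genes and -0.07 over all genes tested.

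Itga6 (chromosome 2, 71745616 to 71858416, plus strand, in mm10 coordinates as in all positions below) gave 1276, 988 and 1260 CPM in Sca-1+ tdT+ libraries, against 387, 547 and 566 CPM in Sca-1neg tdT+ libraries. Every Sca-1+ tdT+ library lay above every Sca-1neg tdT+ library, and the log2 fold change was 1.23 ± 0.18 (SE; edgeR quasi-likelihood test with Benjamini-Hochberg adjustment over all genes tested, as in all tests below, adjusted p = 0.00193). It was 1.04 (adjusted p = 0.0298) without the 3 libraries with liver transcripts. In the 32-week libraries alone it stayed positive and lost the call (adjusted p = 0.105). Itga3 (chromosome 11, 95044474 to 95076801, minus strand) had 449, 325 and 544 CPM in Sca-1+ tdT+ libraries, against 217, 248 and 261 CPM in Sca-1neg tdT+ libraries, with no overlap. Its log2 fold change was 0.86 ± 0.20 (adjusted p = 0.0159). The call on Itga3 was lost when Sca-1neg tdT+ replicate 1 (adjusted p = 0.0623) or Sca-1+ tdT+ replicate 3 (0.0588) was left out, and without the 3 libraries with liver transcripts (0.143); in the 32-week libraries alone the log2 fold change was 0.77 (0.311). Itgb4, the hemidesmosome partner of Itga6, had 890, 565 and 810 CPM in Sca-1+ tdT+ libraries, against 464, 609 and 647 CPM in Sca-1neg tdT+ libraries; the groups overlapped and the gene did not pass the test (log2 fold change 0.40).

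Itgb8, the chain of αvβ8 that activates latent TGF-β, lies on chromosome 12 (119158022 to 119238802, minus strand). Its levels were 35.9, 52.9 and 31.7 CPM in Sca-1+ tdT+ libraries, against 116, 65.1 and 136 CPM in Sca-1neg tdT+ libraries, so the groups did not overlap. Itgb8 fell by 1.39 ± 0.35 on the log2 scale (adjusted p = 0.0271). That call was lost without any 1 of Sca-1neg tdT+ replicate 1, Sca-1neg tdT+ replicate 3, Sca-1+ tdT+ replicate 1 and Sca-1+ tdT+ replicate 3 (adjusted p from 0.0694 to 0.0940), and with no low-count filter (0.0579). It was lost too in the 32-week libraries alone (-1.25). Without the 3 libraries with liver transcripts the log2 fold change was -1.78, against 1 Sca-1neg tdT+ library, the highest of its group at 136 CPM. Itgb6, which with Itgav forms another TGF-β activating receptor of keratinocytes, had 31.8, 26.4 and 49.3 CPM in Sca-1+ tdT+ libraries, against 54.0, 47.6 and 58.6 CPM in Sca-1neg tdT+ libraries and did not pass. Itga2, the collagen receptor chain of α2β1, did not pass either, with 105, 56.6 and 130 CPM in Sca-1+ tdT+ libraries, against 52.7, 80.6 and 87.8 CPM in Sca-1neg tdT+ libraries.

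Among leukocyte chains in the same comparison, Itgae (chromosome 11, 73090583 to 73147446, plus strand) had 85.7, 173 and 169 CPM in Sca-1+ tdT+ libraries, against 9.11, 10.4 and 7.33 CPM in Sca-1neg tdT+ libraries. The log2 fold change was 3.99 ± 0.45 (adjusted p = 0.000533). Its partner Itgb7 (chromosome 15, 102215995 to 102231944, minus strand) had 45.5, 102 and 67.04 CPM in Sca-1+ tdT+ libraries, against 7.21, 9.27 and 3.25 CPM in Sca-1neg tdT+ libraries, a log2 fold change of 3.44 ± 0.43 (adjusted p = 0.000791). Both partners were thus higher in every Sca-1+ tdT+ library than in any Sca-1neg tdT+ library. Itga4 (chromosome 2, 79255426 to 79333123, plus strand) went the other way, with 2.80, 5.51 and 1.96 CPM in Sca-1+ tdT+ libraries, against 26.5, 31.5 and 36.5 CPM in Sca-1neg tdT+ libraries. Itga4 fell by 3.20 ± 0.38 on the log2 scale (adjusted p = 0.000531). The calls on Itga4, Itgae and Itgb7 held under all 17 alternative settings, and in the 32-week libraries alone the log2 fold changes were -3.19, 4.26 and 3.75. Without the 3 libraries with liver transcripts they were -3.44, 4.26 and 4.44.

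Markers of T cells moved with the αEβ7 pair: their sum was 269, 818 and 522 CPM in Sca-1+ tdT+ libraries, against 29.3, 48.5 and 58.1 CPM in Sca-1neg tdT+ libraries, and all 10 markers were called higher. Cd3e, part of the T cell receptor complex, had 47.1, 117 and 95.5 CPM in Sca-1+ tdT+ libraries, against 3.49, 7.87 and 6.39 CPM in Sca-1neg tdT+ libraries. The part of these T cell transcripts in the Itgae and Itgb7 result was not tested. Itga4 was lower in this comparison. Between the Sca-1neg groups, given below, Itga4 and the T cell sum were both higher in tdT+ than in tdT- libraries. The part of T cell transcripts in the Itga4 result was not tested. Itgal, the alpha chain of LFA-1, had 52.2, 85.1 and 82.5 CPM in Sca-1+ tdT+ libraries, against 17.6, 14.6 and 6.34 CPM in Sca-1neg tdT+ libraries; the groups did not overlap but the gene missed the threshold (log2 fold change 2.51) and passed it without the 3 libraries with liver transcripts (3.51, adjusted p = 0.000456).

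Itga5 (chromosome 15, 103344286 to 103366763, minus strand) had 31.1, 31.1 and 31.3 CPM in Sca-1+ tdT+ libraries, against 33.99, 72.2 and 53.9 CPM in Sca-1neg tdT+ libraries. Itga5 fell by 0.77 ± 0.23 on the log2 scale, just past the threshold (adjusted p = 0.0494). The call was lost when any single library was left out other than Sca-1neg tdT+ replicate 1 (adjusted p from 0.0516 to 0.152), and the log2 fold change was -0.50 when the library labelled Sca-1neg tdT+ replicate 2 was left out. Leaving out the 3 libraries with liver transcripts, which leaves 1 Sca-1neg tdT+ library, gave -0.81. The library labelled Sca-1neg tdT+ replicate 2 had 749 CPM of endothelial markers, against 136 and 8.10 CPM in the rest of its group. The count of 7 genes came to 4 without Sca-1+ tdT+ replicate 3 and to 3 (Itga4, Itgae and Itgb7) in the 32-week libraries alone. Without the 3 libraries with liver transcripts, the single Sca-1neg tdT+ library left had Itga9 and Itgb3 at 0.0551 CPM and Itgax at 0 CPM.

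**Figure D3:**
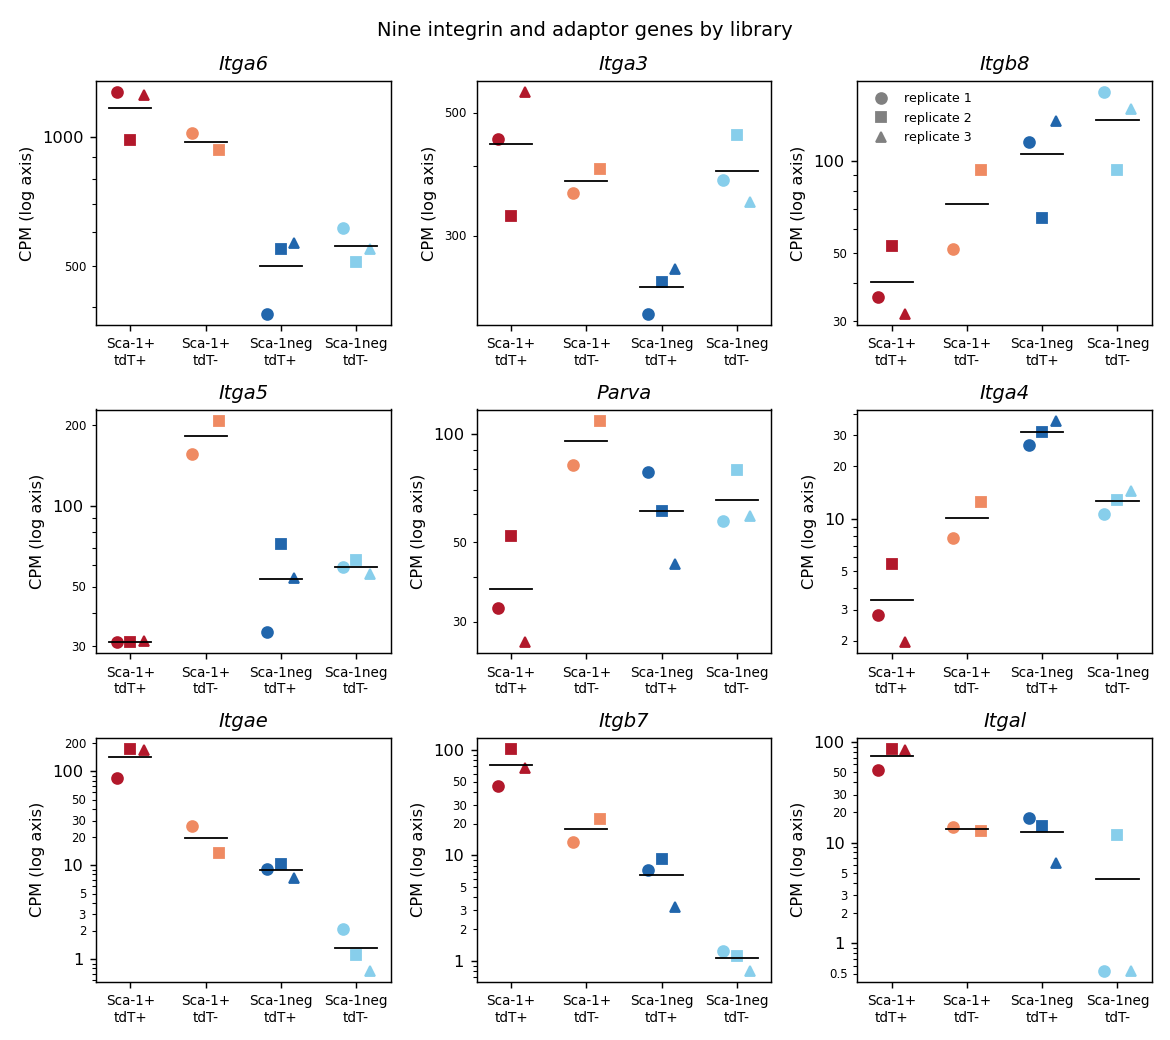
CPM of 9 genes in each library (points, log axis) by group, in the order Sca-1+ tdT+, Sca-1+ tdT-, Sca-1neg tdT+, Sca-1neg tdT-, with the mean of each group as a line. Itga5 stands at 156 and 208 CPM for the 2 Sca-1+ tdT- libraries and at 72.2 CPM or less elsewhere, and Itga4 is highest in the 3 Sca-1neg tdT+ libraries (26.5 to 36.5 CPM).

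Within tdT- cells, Sca-1+ tdT- was compared with Sca-1neg tdT-. Itga6, Itga5, Itgae, Itgb7 and Itgam were higher in Sca-1+ tdT- cells, and the others of the 33 did not pass in either direction. These 5 genes were 15.2% of the 33, beside 5.74% of all genes tested (3.68% called higher and 2.06% lower). The median log2 fold change was 0.43 over the 33 genes and -0.13 over all genes tested. By class it was 2.68 for leukocyte chains, 0.28 for vascular and mesenchymal chains and -0.06 for epithelial chains. The leukocyte median includes Itgad, at -4.86 from 0 counts in both Sca-1+ tdT- libraries.

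Itga6 had 1021 and 932 CPM in Sca-1+ tdT- libraries, against 615, 512 and 548 CPM in Sca-1neg tdT- libraries, without overlap, and its log2 fold change was 0.81 ± 0.20 (adjusted p = 0.0408). The call was lost without any 1 of the 3 Sca-1neg tdT- libraries, the 2 Sca-1+ tdT- libraries, or Sca-1+ tdT+ replicates 1 and 3 (adjusted p from 0.0566 to 0.326). In the 32-week libraries alone the log2 fold change was also 0.81 (adjusted p = 0.533), and leaving out the 3 libraries with liver transcripts gave 0.80 (0.0387). Itga3 showed no such split, with 358 and 395 CPM in Sca-1+ tdT- libraries, against 377, 456 and 344 CPM in Sca-1neg tdT- libraries. Itgb4 had 788 and 871 CPM in Sca-1+ tdT- libraries, against 776, 722 and 648 CPM in Sca-1neg tdT- libraries, and did not pass.

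Itga5, whose product pairs with β1 to bind fibronectin, had 156 and 208 CPM in Sca-1+ tdT- libraries, against 59.3, 62.7 and 55.9 CPM in Sca-1neg tdT- libraries. Its log2 fold change was 1.62 ± 0.25 (adjusted p = 0.0068), and both Sca-1+ tdT- libraries lay above all 3 Sca-1neg tdT- libraries. In the 32-week libraries alone it was 1.80 (adjusted p = 0.0958), and without the 3 libraries with liver transcripts 1.70 (0.000315). Endothelial markers stood apart in the same libraries: their sum was 2919 and 2982 CPM in Sca-1+ tdT- libraries, against 44.7, 180 and 54.3 CPM in Sca-1neg tdT- libraries. Pecam1, the platelet-endothelial adhesion molecule, had 688 and 728 CPM in Sca-1+ tdT- libraries, against 7.98, 19.6 and 10.3 CPM in Sca-1neg tdT- libraries. The 12 endothelial genes all had positive log2 fold changes here and none passed the test. At an unadjusted p under 0.05 there were 11, beside 4173 of the 20307 genes tested. Egfl7, which is among the 12 and on the ligand list below, was at 3.85 (adjusted p = 0.0598) with all libraries. It was at 4.76 (adjusted p = 2.14e-05) without the 3 libraries with liver transcripts. The marker lists were not counted without those libraries. The part of the endothelial genes in the Itga5 result was not tested.

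Itgae had 26.1 and 13.4 CPM in Sca-1+ tdT- libraries, against 2.11, 1.11 and 0.756 CPM in Sca-1neg tdT- libraries (log2 fold change 3.89 ± 0.47, adjusted p = 0.00383). Itgb7 had 13.4 and 22.3 CPM in Sca-1+ tdT- libraries, against 1.24, 1.11 and 0.805 CPM in Sca-1neg tdT- libraries (log2 fold change 4.08 ± 0.47, adjusted p = 0.00254). The αEβ7 pair was therefore higher with Sca-1 in tdT- cells as well as in tdT+ cells. The comparisons share no library but come from 1 fit with a shared estimate of the spread. The labels do not say whether the groups share mice. In the 32-week libraries alone Itgae was at 3.83 (adjusted p = 0.0328) and Itgb7 at 4.53 (0.104), and without the 3 libraries with liver transcripts they were at 3.82 and 4.16. T cell markers summed to 78.2 and 72.2 CPM in Sca-1+ tdT- libraries, against 13.0, 14.6 and 14.6 CPM in Sca-1neg tdT- libraries, and 8 of the 10 were called higher; their part in the result was not tested.

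Itgam, the alpha chain of the Mac-1 receptor of myeloid cells, rested on few reads: 44 and 371 counts in Sca-1+ tdT- libraries, against 13, 5 and 2 counts in Sca-1neg tdT- libraries. The log2 fold change was 5.77 ± 1.24 (adjusted p = 0.0229), but it was 3.22 (adjusted p = 0.285) without Sca-1+ tdT- replicate 2, and the call was also lost without any 1 of the 3 Sca-1neg tdT- libraries (adjusted p from 0.0541 to 0.0986). Leaving out the 3 libraries with liver transcripts gave 5.70 (adjusted p = 0.0146). Macrophage and monocyte markers were at 122 and 831 CPM in Sca-1+ tdT- libraries, against 9.30, 99.0 and 7.56 CPM in Sca-1neg tdT- libraries, and none of the 8 was called. Langerhans cell markers summed to 769 and 890 CPM in Sca-1+ tdT- libraries, against 422, 396 and 360 CPM in Sca-1neg tdT- libraries, and 3 of the 6 were called higher. Mast cell markers summed to 42.4 and 68.6 CPM in Sca-1+ tdT- libraries, against 7.75, 9.67 and 4.98 CPM in Sca-1neg tdT- libraries; of the 2 tested 1 was called higher. The part of these cells in the Itgam result was not tested. In the annotation, 68.7% of the exon bases of Itgam are shared with the same-strand gene Gm49368, which had at most 1 count a library. The count of 5 genes came to 3 when Sca-1neg tdT- replicate 1, its replicate 3 or Sca-1+ tdT- replicate 2 was left out, and to 1 (Itgae) in the 32-week libraries alone, which hold a single Sca-1+ tdT- library. Without the 3 libraries with liver transcripts it came to 13, 12 of them higher.

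Among Sca-1+ cells, Sca-1+ tdT+ was compared with Sca-1+ tdT-. Itgae was higher and Itga5 and Parva were lower in Sca-1+ tdT+ cells. These 3 genes were 9.09% of the 33, beside 2.74% of all genes tested, of which 0.394% were called higher and 2.34% lower. The median log2 fold change was -0.34 over the 33 genes, against 0.04 over all genes tested. By class it was 1.04 for leukocyte chains and -0.65 for vascular and mesenchymal chains. Of the 8 leukocyte chains 5 had positive and 3 negative log2 fold changes. The 5 include Itgad, at 7.02 from 0 counts in both Sca-1+ tdT- libraries, so the leukocyte median does not show a rise of the class.

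Itga5 had 31.1, 31.1 and 31.3 CPM in Sca-1+ tdT+ libraries, against 156 and 208 CPM in Sca-1+ tdT- libraries. Itga5 fell by 2.54 ± 0.26 on the log2 scale (adjusted p = 0.000596), and this call held under all 17 alternative settings, with -2.74 in the 32-week libraries alone. Endothelial markers fell into the same 2 sets of libraries, with sums of 56.4, 92.8 and 105 CPM in Sca-1+ tdT+ libraries, against 2919 and 2982 CPM in both Sca-1+ tdT- libraries, and 1 of the 12 was called lower; their part was not tested. Itgb3, the chain of αvβ3 on activated endothelium and of the platelet receptor αIIbβ3, had 1.28, 2.44 and 1.70 CPM in Sca-1+ tdT+ libraries, against 17.02 and 28.2 CPM in Sca-1+ tdT- libraries. It did not pass (log2 fold change -3.65, adjusted p = 0.303), but passed without the 3 libraries with liver transcripts (-3.72, adjusted p = 0.000534). Itga9, whose product with β1 binds tenascin-C and is also known from lymphatic endothelium, had 0.773, 4.20 and 4.18 CPM in Sca-1+ tdT+ libraries, against 26.7 and 28.6 CPM in Sca-1+ tdT- libraries; it likewise passed only without those 3 libraries (-3.27, adjusted p = 0.00873).

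Parva, the α-parvin that joins Ilk to actin, lies on chromosome 7 (112427505 to 112591692, plus strand). It had 32.8, 52.1 and 26.3 CPM in Sca-1+ tdT+ libraries, against 81.8 and 109 CPM in both Sca-1+ tdT- libraries, and fell by 1.36 ± 0.31 on the log2 scale (adjusted p = 0.0427). The call was lost in 7 of the 11 settings that left out 1 library (adjusted p from 0.0589 to 0.362), and was kept without Sca-1+ tdT+ replicate 2, Sca-1neg tdT+ replicate 1, Sca-1neg tdT+ replicate 3 or Sca-1neg tdT- replicate 2. It was lost too in the 32-week libraries alone (-1.48, adjusted p = 0.377). Smooth muscle and pericyte markers summed to 54.3, 52.7 and 71.6 CPM in Sca-1+ tdT+ libraries, against 109 and 219 CPM in both Sca-1+ tdT- libraries, and 1 of the 7 was called lower. Their part in the Parva result, and that of the endothelial markers given above, was not tested. Itgae had 85.7, 173 and 169 CPM in Sca-1+ tdT+ libraries, against 26.1 and 13.4 CPM in Sca-1+ tdT- libraries. Its log2 fold change was 2.85 ± 0.50 (adjusted p = 0.0148) and lost its call only without Sca-1+ tdT- replicate 2 (adjusted p = 0.194). T cell markers summed to 269, 818 and 522 CPM in Sca-1+ tdT+ libraries, against 78.2 and 72.2 CPM in both Sca-1+ tdT- libraries, and 5 of the 10 were called higher.

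Its partner Itgb7 had 45.5, 102 and 67.04 CPM in Sca-1+ tdT+ libraries, against 13.4 and 22.3 CPM in both Sca-1+ tdT- libraries, and narrowly missed the threshold (log2 fold change 2.00, adjusted p = 0.0538). Itga4 missed it too, with 2.80, 5.51 and 1.96 CPM in Sca-1+ tdT+ libraries, against 7.75 and 12.4 CPM in Sca-1+ tdT- libraries (log2 fold change -1.56, adjusted p = 0.0681). Without Sca-1+ tdT- replicate 2 only 1 gene, Itga5, stayed past the threshold; without the 3 libraries with liver transcripts 8 passed.

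**Figure D4:**
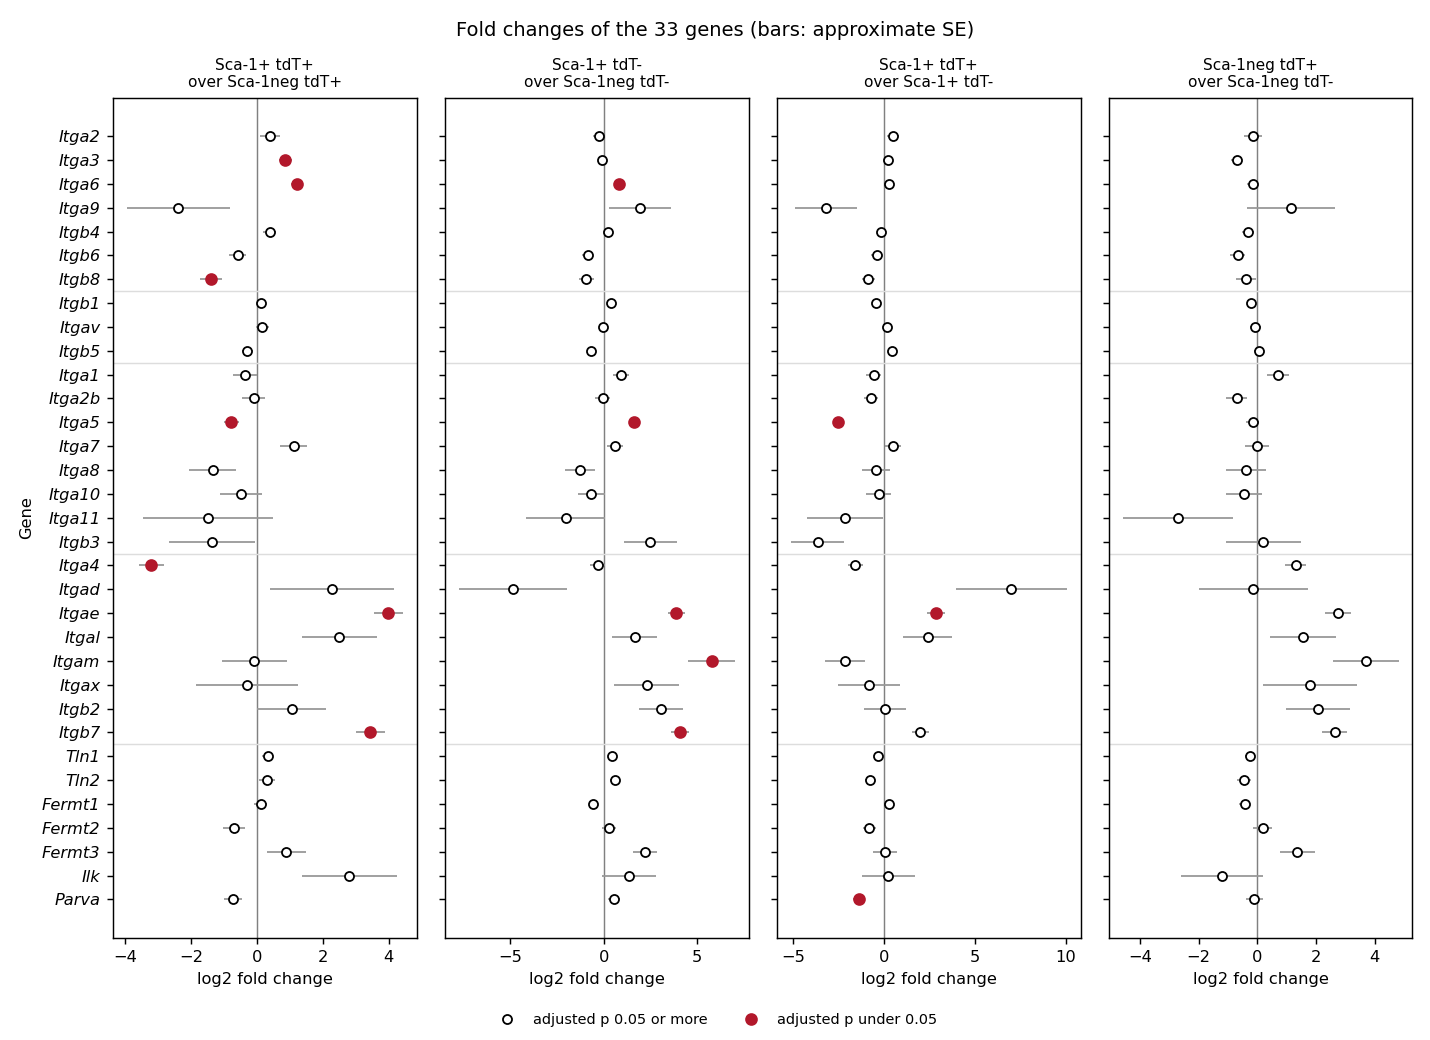
Log2 fold change of each of the 33 genes in the 4 comparisons of 2 groups, with the approximate SE as bars; filled points passed an adjusted p of 0.05. Itgae lies right of 0 in all 4 panels (2.75 to 3.99), while Itga5 is at -2.54 between the Sca-1+ groups and at 1.62 between the tdT- groups.

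Among Sca-1neg cells, Sca-1neg tdT+ was compared with Sca-1neg tdT-, and the edgeR quasi-likelihood test called none of the 33 genes, beside 0.0640% of all genes tested (0.0542% called higher and 0.00985% lower). At an unadjusted p under 0.05 in that test there were 8 of the 33, beside 1691 of the 20307 genes tested. They were Itga3, Itgb6, Itga4, Itgae, Itgam, Itgb7, Fermt1 and Fermt3. The Wald test of DESeq2 called 4 of them higher, namely Itga4, Itgae, Itgam and Itgb7, where it called 400 (1.97%) of the 20307 genes, 348 of them higher. In edgeR, leaving out 1 library gave 0 or 1 call. One of the 3 tdT+ libraries here is the library labelled Sca-1neg tdT+ replicate 2, with its tdT level like that of tdT- cells.

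Itgae had 9.11, 10.4 and 7.33 CPM in Sca-1neg tdT+ libraries, against 2.11, 1.11 and 0.756 CPM in Sca-1neg tdT- libraries, without overlap (log2 fold change 2.75 ± 0.43, adjusted p = 0.0788). Itgb7 had 7.21, 9.27 and 3.25 CPM in Sca-1neg tdT+ libraries, against 1.24, 1.11 and 0.805 CPM in Sca-1neg tdT- libraries (log2 fold change 2.64 ± 0.43, adjusted p = 0.0788). Itga4 had 26.5, 31.5 and 36.5 CPM in Sca-1neg tdT+ libraries, against 10.6, 12.8 and 14.4 CPM in Sca-1neg tdT- libraries (log2 fold change 1.32 ± 0.36, adjusted p = 0.298). All 3 genes were higher in each tdT+ library than in each tdT- library, the library labelled Sca-1neg tdT+ replicate 2 included. Itgam was higher in the same way, while Itgb4, Itgb6, Tln2 and Fermt1, like Itga3 below, were lower without overlap. None of these genes passed the edgeR test. The share of all genes tested that separate in this way is not given, so the separation is a description only. T cell markers summed to 29.3, 48.5 and 58.1 CPM in Sca-1neg tdT+ libraries, against 13.0, 14.6 and 14.6 CPM in Sca-1neg tdT- libraries. Itga3 had 217, 248 and 261 CPM in Sca-1neg tdT+ libraries, against 377, 456 and 344 CPM in Sca-1neg tdT- libraries, again without overlap (log2 fold change -0.70, adjusted p = 0.316). Leaving out the 3 libraries with liver transcripts leaves 1 Sca-1neg tdT+ library; there Itgae was at 2.34, Itgb7 at 1.66 and Itga4 at 1.55, and Itgal alone was called (3.55, adjusted p = 0.00622).

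The difference of the tdT effect between Sca-1 fractions was tested as an interaction, Sca-1+ minus Sca-1neg. Itga5 and Itga4 passed, both negative; they were 6.06% of the 33, beside 0.483% of all genes tested. For Itga5 the difference was -2.39 ± 0.34 on the log2 scale (adjusted p = 0.0121), the log2 fold change of tdT+ over tdT- being -2.54 in Sca-1+ cells and -0.15 in Sca-1neg cells. For Itga4 it was -2.88 ± 0.53 (adjusted p = 0.0455), with -1.56 in Sca-1+ cells and 1.32 in Sca-1neg cells. Neither passed without Sca-1+ tdT- replicate 2 (adjusted p = 0.0796 for Itga5 and 0.235 for Itga4), and Itga4 passed when 1 library was left out only where that library was Sca-1neg tdT+ replicate 3 or Sca-1+ tdT+ replicate 2. With the 3 libraries with liver transcripts left out, the difference was -2.51 for Itga5 (adjusted p = 0.00273) and -3.17 for Itga4, which then missed the threshold (0.0657). For Itgae the 2 effects were 2.85 and 2.75, and the interaction of 0.10 did not pass.

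**Figure D5:**
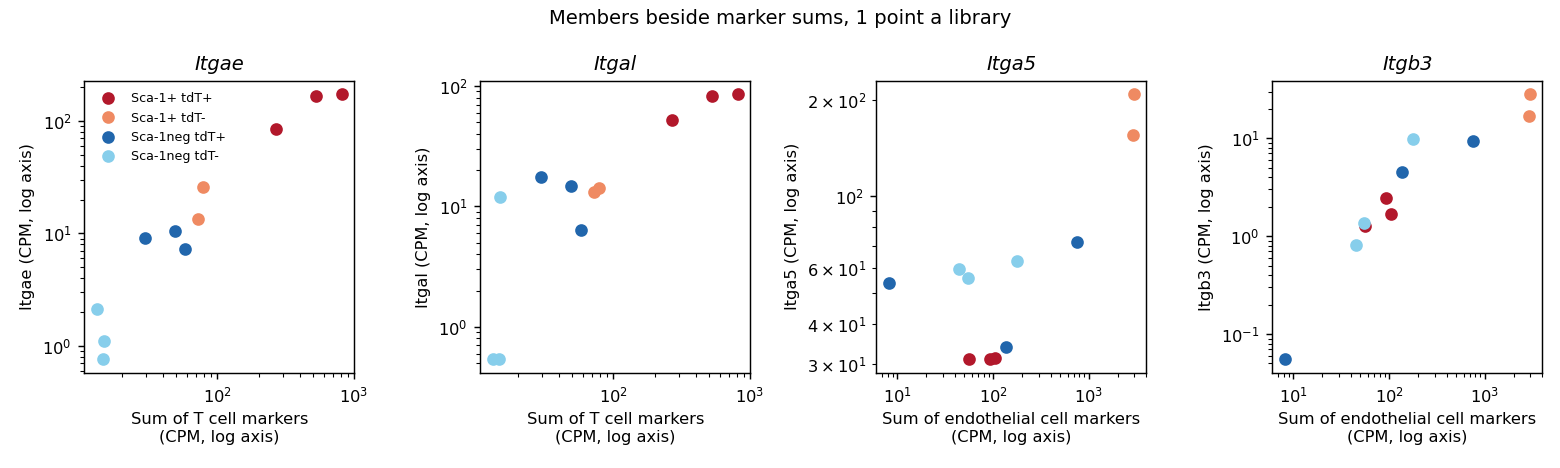
CPM of Itgae, Itgal, Itga5 and Itgb3 (vertical log axes) against the summed CPM of T cell markers (first 2 panels) or endothelial markers (last 2 panels; horizontal log axes), 1 point a library, coloured by group. The 3 Sca-1+ tdT+ libraries lie at the upper right for Itgae (T cell sums of 269 to 818 CPM), and the 2 Sca-1+ tdT- libraries at the upper right for Itga5 (endothelial sums of 2919 and 2982 CPM).

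Of the 5 genes called in 2 or more comparisons, Itga4, Itga5 and Itgb7 have a promoter in the RefSeq table (GRCm38.p6, 250 bases before to 50 after the start; 23 of the 33 genes have one), and Itga6 and Itgae are named only. They are shown because these chains were called in more than 1 comparison. RUNX and ETS factors are known to bind genes of blood and endothelial cells. The letters searched on both strands were TGTGGT (a RUNX core), CCGGAA (an ETS site) and GGGCGG (a GC box), and matches are in capitals. The regions are chr2:79255176-79255475 on the plus strand for Itga4, chr15:103366742-103367041 on the minus strand for Itga5 and chr15:102231886-102232185 on the minus strand for Itgb7, each printed 5′ to 3′.
Itga4: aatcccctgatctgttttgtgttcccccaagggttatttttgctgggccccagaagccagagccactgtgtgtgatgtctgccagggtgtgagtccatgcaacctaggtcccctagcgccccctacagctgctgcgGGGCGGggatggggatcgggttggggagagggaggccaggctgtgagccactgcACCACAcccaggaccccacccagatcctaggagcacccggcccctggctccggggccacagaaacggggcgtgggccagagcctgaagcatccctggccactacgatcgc
Itga5: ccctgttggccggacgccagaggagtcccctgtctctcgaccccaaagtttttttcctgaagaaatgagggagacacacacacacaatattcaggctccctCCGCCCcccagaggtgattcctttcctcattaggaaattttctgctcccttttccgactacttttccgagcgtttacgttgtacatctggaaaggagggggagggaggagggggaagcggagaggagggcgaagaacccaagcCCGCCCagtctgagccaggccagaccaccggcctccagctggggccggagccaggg
Itgb7: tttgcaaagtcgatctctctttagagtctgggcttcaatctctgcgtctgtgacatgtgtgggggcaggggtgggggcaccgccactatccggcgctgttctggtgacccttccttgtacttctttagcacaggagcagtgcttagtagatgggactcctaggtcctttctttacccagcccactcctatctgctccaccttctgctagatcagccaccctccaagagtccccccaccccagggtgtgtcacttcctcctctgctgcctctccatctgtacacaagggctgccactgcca
The Itga4 window held 1 RUNX core, read on its other strand 60 bases before the start, and 1 GC box 114 bases before it. The Itga5 window held GC boxes on its other strand 149 and 6 bases before the start, and the Itgb7 window held none of the 3 motifs. Of 32851 promoters of that length, 16.8% held the RUNX core, 14.9% the ETS site and 35.7% the GC box. A match is a description of the letters, not of binding.

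Itgb1, the most widely shared beta chain, had 423, 470 and 469 CPM in all Sca-1+ tdT+ libraries, 596 and 631.1 CPM in both Sca-1+ tdT- libraries, 367, 442 and 430 CPM in Sca-1neg tdT+ libraries and 478, 433 and 509 CPM in Sca-1neg tdT- libraries, and passed in no comparison. Itgav, the alpha chain shared by the RGD-binding receptors, ranged from 126 to 213 CPM and its partner Itgb5 from 52.8 to 116 CPM over the 11 libraries, with no call. Itgav overlapped between groups in every comparison of 2 groups. Both Sca-1+ tdT- libraries had more Itgb1, and less Itgb5, than any Sca-1+ tdT+ or Sca-1neg tdT- library. In each of these 2 comparisons Itgb1 passed under 1 of the 17 alternatives.

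Of the vascular and mesenchymal class, Itga1 (collagen and laminin receptor) ranged from 10.2 to 36.1 CPM, Itga7 (the muscle laminin receptor) from 5.18 to 24.01 CPM and Itga2b (the platelet chain) from 4.30 to 13.2 CPM. Itga10, a collagen receptor chain of cartilage, ranged from 1.14 to 5.52 CPM, and 33.5% of its exon bases are shared with the same-strand gene Gm42957. Itga8, a chain of smooth muscle and mesenchyme, ranged from 0.453 to 6.85 CPM. Itga11 lay between 0 and 0.601 CPM in 10 libraries and at 5.26 CPM in Sca-1neg tdT- replicate 2, one of the 3 with liver transcripts. None of these 6 passed in any comparison of the main fit. Itga1 passed under 2 of the 17 alternatives in Sca-1+ tdT- over Sca-1neg tdT- cells. Itga7 passed under 1 in Sca-1+ tdT+ over Sca-1neg tdT+ cells. Platelet markers summed to 0.952 to 8.09 CPM outside Sca-1+ tdT- replicate 2, the highest, with Gp1bb at 0 throughout. Fibroblast markers summed to 27.8 to 486 CPM over the 11 libraries.

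Of the other leukocyte chains, Itgb2 (the β2 chain shared by LFA-1 and Mac-1) had 22.7, 30.9 and 23.1 CPM in all Sca-1+ tdT+ libraries, 10.1 and 38.7 CPM in both Sca-1+ tdT- libraries, 13.3, 20.3 and 3.03 CPM in Sca-1neg tdT+ libraries and 0.909, 7.29 and 0.488 CPM in Sca-1neg tdT- libraries. The highest Sca-1neg tdT- value was in the library with liver transcripts. Itgax, the alpha chain of the dendritic cell receptor CD11c, ranged from 0 to 7.34 CPM. Itgad, the remaining β2 partner, had 17, 8 and 15 counts in Sca-1+ tdT+ libraries, 0 and 0 in Sca-1+ tdT- libraries, 6, 1 and 0 in Sca-1neg tdT+ libraries and 0, 14 and 0 in Sca-1neg tdT- libraries, too few for a fold change. None of these 3 passed in any comparison of the main fit. In Sca-1+ tdT- over Sca-1neg tdT- cells Itgb2 passed under 3 of the 17 alternatives and Itgax under 1. In Sca-1+ tdT+ over Sca-1neg tdT+ cells each passed under 1.

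Among adaptors, Tln1 ranged from 260 to 491 CPM and Tln2, the second talin, from 14.1 to 48.5 CPM. Fermt1 had 149, 123 and 88.9 CPM in all Sca-1+ tdT+ libraries, 107 and 93.9 CPM in both Sca-1+ tdT- libraries, 114, 92.0 and 127 CPM in Sca-1neg tdT+ libraries and 166, 135 and 147 CPM in Sca-1neg tdT- libraries. The widely expressed kindlin Fermt2 ranged from 19.8 to 62.0 CPM, and the blood cell kindlin Fermt3 had 15.1, 18.2 and 17.03 CPM in all Sca-1+ tdT+ libraries, 8.61 and 23.9 CPM in both Sca-1+ tdT- libraries, 8.61, 13.4 and 4.96 CPM in Sca-1neg tdT+ libraries and 2.09, 6.92 and 1.54 CPM in Sca-1neg tdT- libraries. Parva was the one adaptor that passed in any comparison of the main fit. In Sca-1+ tdT- over Sca-1neg tdT- cells Fermt3 passed under 4 of the 17 alternatives and Tln1 under 1. Fermt2 passed under 1 in Sca-1+ tdT+ over Sca-1neg tdT+ cells. Ilk was listed at 0 to 28 counts a library; 76.7% of its exon bases are shared with the opposite-strand gene Taf10, which had 614 to 1557 counts, so its level is uncertain because the strand setting of the counting is not given in the sources used here.

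Ligands of these receptors were read from a list of 42 symbols. Of these, 40 matched a gene, and 38 passed the low-count filter. The symbols without a match were not tested for that reason and not for low counts. In Sca-1+ tdT+ over Sca-1+ tdT- cells 8 fell and none rose, beside 2.34% of all genes tested called lower and 0.394% higher, with a median log2 fold change of -1.49, against 0.04 over all genes. Leaving out the 3 libraries with liver transcripts, 17 fell, beside 5.99% of all genes called in either direction. The lowest p-values were those of Mfge8, an RGD ligand of αv integrins (-2.44, adjusted p = 0.000569), the endothelial laminin chain Lama4 (-2.61, adjusted p = 0.000655) and the collagen IV chains Col4a2 (-3.71, adjusted p = 0.00102) and Col4a1 (-3.78, adjusted p = 0.00457). In Sca-1+ tdT- over Sca-1neg tdT- cells Icam1, the ligand of LFA-1, rose (2.72, adjusted p = 0.00516), as did Lama4 (1.30, adjusted p = 0.0180), and Npnt, the ligand of α8β1, fell (-2.08, adjusted p = 0.00582). These 3 of 38 stood beside 5.74% of all genes called, and leaving out those 3 libraries gave 13 higher and 2 lower, beside 9.65% of all genes. In Sca-1+ tdT+ over Sca-1neg tdT+ cells the matricellular Thbs1 rose (0.94, adjusted p = 0.0442) and 8 ligands fell, led by Mfge8 (-1.59, adjusted p = 0.00126), Npnt (-1.87, adjusted p = 0.00146), Col4a2 (-2.28, adjusted p = 0.00291) and periostin, Postn (-3.23, adjusted p = 0.00313). Postn averaged 637 ± 389 CPM in Sca-1+ tdT+ libraries, against 5960 ± 2393 CPM in Sca-1neg tdT+ libraries (SD, n = 3 each). The 9 calls stood beside 5.94% of all genes called higher and 6.73% lower. Leaving out the same 3 libraries, 3 ligands rose and 9 fell, beside 10.3% of all genes, and Thbs1 lost its call (adjusted p = 0.143).

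No ligand passed in Sca-1neg tdT+ over Sca-1neg tdT- cells by edgeR, beside 0.0640% of all genes. At an unadjusted p under 0.05 there were 5, beside 1691 of the 20307 genes tested. Without those 3 libraries, which leaves 1 Sca-1neg tdT+ library, Nid1 was at -4.44. The most abundant, Postn and Thbs1, averaged 5960 and 1078 CPM in Sca-1neg tdT+ libraries, against 5783 and 1630 CPM in Sca-1neg tdT- libraries. The interaction called 3 ligands, all negative, beside 0.483% of all genes tested: Lama4 (-2.22, adjusted p = 0.0241), Icam1 (-3.00, adjusted p = 0.0344) and Col4a2 (-2.96, adjusted p = 0.0403). Leaving out the 3 libraries it called 7, beside 1.02% of all genes, and Lama4 missed the threshold (adjusted p = 0.0616). Lama4, Col4a1 and Col4a2 are laminin and collagen chains of vessel basement membrane as well as of other cells, and the endothelial sums above stand beside them.

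Of 53 other genes of adhesion complexes, 10 fell and 1 rose in Sca-1+ tdT+ over Sca-1+ tdT- cells, beside 2.34% of all genes called lower and 0.394% higher; 14 fell and 2 rose when the 3 libraries with liver transcripts were left out (5.99% of all genes). The adaptor that rose was the Rap1 effector Rassf5 (0.88, adjusted p = 0.0332), and the lowest p-values among those that fell were of Tns2, a tensin (-2.18, adjusted p = 0.000365), Kank2, a talin-binding protein (-1.87, adjusted p = 0.000973), the actin crosslinker Actn1 (-1.85, adjusted p = 0.00126) and the paxillin relative Tgfb1i1 (-2.31, adjusted p = 0.00678). In Sca-1+ tdT+ over Sca-1neg tdT+ cells 7 rose and 11 fell, beside 5.94% of all genes called higher and 6.73% lower. Rassf5 (1.38, adjusted p = 0.000581), the T cell adaptor Skap1 (4.45, adjusted p = 0.00299), the kinase Ptk2b (1.28, adjusted p = 0.00363) and Vasp (0.90, adjusted p = 0.00401) led those that rose. Tns2 (-2.31, adjusted p = 8.5e-05), Kank2 (-1.90, adjusted p = 0.000238) and Actn1 (-1.63, adjusted p = 0.000603) led those that fell. With those 3 libraries left out, 9 rose and 11 fell (10.3% of all genes), and Vasp lost its call (adjusted p = 0.0756). Smooth muscle and pericyte markers summed to 54.3, 52.7 and 71.6 CPM in Sca-1+ tdT+ libraries, against 351, 257 and 395 CPM in Sca-1neg tdT+ libraries; all 7 had negative log2 fold changes and 1 was called lower. T cell markers, given above, were higher in Sca-1+ tdT+ libraries. The part of either in these counts was not tested.

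In Sca-1+ tdT- over Sca-1neg tdT- cells 4 adhesion-complex genes rose, of which Lpxn (2.69, adjusted p = 0.0224), Fyb (2.86, adjusted p = 0.0237) and Apbb1ip (4.02, adjusted p = 0.0244) are best known from blood cells and Cyth1 (0.83, adjusted p = 0.0378) is widely expressed; the kinase Src fell (-1.02, adjusted p = 0.0388). The 4 stood beside 3.68% of all genes called higher and Src beside 2.06% lower, and leaving out the 3 libraries 13 rose and 4 fell (9.65% of all genes). None passed in Sca-1neg tdT+ over Sca-1neg tdT- cells by edgeR, beside 0.0640% of all genes. At an unadjusted p under 0.05 there were 8, beside 1691 of the 20307 genes tested. Without those 3 libraries, which leaves 1 Sca-1neg tdT+ library, Apbb1ip was at 4.67. The most abundant were the hemidesmosome genes Col17a1 and Dst, at 5194 and 1575 CPM in Sca-1neg tdT+ libraries, against 6632 and 1574 CPM in Sca-1neg tdT- libraries. The interaction called Tns2 (-1.92, adjusted p = 0.0119) and Kank2 (-1.57, adjusted p = 0.0397), beside 0.483% of all genes, and 4 genes without the 3 libraries, beside 1.02%.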

How the data were processed

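Gene counts were measured in 11 bulk RNA libraries (TruSeq RNA v2) of thermolysin-released, FACS-sorted epidermal cells. The deposited files hold raw counts, 1 file a library. Per the submitters' processing notes, bcl2fastq 2.20.0.422, FastQC, STAR, featureCounts, DESeq2 1.18.1 and the genome build mm10 were used; the sources used here do not give the annotation release, strand setting or treatment of reads with several hits. Symbols, positions and exon lengths (union of exons, used for CPM per kb) came from GENCODE M21, which named 55450 genes and left 86 without a symbol. The tdT entry was kept out of the tests.

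Counts were tested in R 4.3.3 with edgeR 4.0.16: TMM scaling, filterByExpr by group (20307 genes), a robust quasi-likelihood fit of 4 group means to all 11 libraries (7 residual degrees of freedom) and Benjamini-Hochberg adjustment, with a threshold of 0.05. The SE is approximate, the absolute log2 fold change over the square root of F. The scripts were tested on simulated data. No 2 of the 55 pairs of libraries were copies: chi-square between their counts, per degree of freedom, was at least 45.5. The 17 alternatives were the Wald test of DESeq2 1.42.0, DESeq2 size factors in edgeR, no low-count filter, replicate number as a block, the 32-week libraries alone, the fit without the 3 libraries with liver transcripts, and leaving out each library in turn. The ligand and adhesion-complex lists were also counted without those 3 libraries, an alternative chosen after seeing the data. The members, lists, alternatives and the naming rule were chosen with earlier results of these data known. Every one of the 33 genes is named; of the ligand and adhesion-complex lists, up to 4 genes past the threshold with the lowest p are named in each direction and comparison, or the 2 most abundant where none passed. A gene that this rule also takes is not reported here.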

Additional observations from a re-analysis of the deposited data

Results flagged for a closer look

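Of the 33 genes, 2 had a tdT effect that differed between the Sca-1 fractions by the interaction test of edgeR. For Itga5 the difference, Sca-1+ minus Sca-1neg, was -2.39 on the log2 scale: tdT+ over tdT- was -2.54 in Sca-1+ cells and -0.15 in Sca-1neg cells. For Itga4 the difference was -2.88, with -1.56 in Sca-1+ cells and 1.32 in Sca-1neg cells, so the 2 fractions differed in sign. Itga5 lost its call in the 32-week libraries alone (adjusted p = 0.233) and without Sca-1+ tdT- replicate 2 (0.0796), and Itga4 under 11 of the 17 alternatives (adjusted p from 0.0625 to 0.578). Without the 3 libraries with liver transcripts the differences were -2.51 for Itga5 (adjusted p = 0.00273) and -3.17 for Itga4 (0.0657). Both differences kept their sign under all 17. Endothelial markers, which summed to 2919 and 2982 CPM in Sca-1+ tdT- libraries, were at 8.10 to 749 CPM in all others; their part in either result was not tested.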

How the results depend on the processing

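Of the 17 calls on members, 5 held under all 17 alternatives: Itga5 in Sca-1+ tdT+ over Sca-1+ tdT-, Itgae in Sca-1+ tdT- over Sca-1neg tdT-, and Itga4, Itgae and Itgb7 in Sca-1+ tdT+ over Sca-1neg tdT+. Over all 17 calls and alternatives 228 values kept their side of the threshold, 61 lost it and 0 changed sign. In each comparison the share of all genes called is in brackets. The count of members called in Sca-1neg tdT+ over Sca-1neg tdT-, 0 (0.0640%), was 4 with DESeq2 (1.97%), 1 with no low-count filter (0.196%), 1 with the replicate block (0.0739%), 1 without the 3 libraries with liver transcripts (0.177%) and 0 to 1 when 1 library was left out (0% to 0.0698%). In Sca-1+ tdT+ over Sca-1+ tdT-, 3 (2.74%) became 7 with DESeq2 (7.14%), 5 with no low-count filter (1.55%), 8 without the liver libraries (5.99%) and 1 to 4 with 1 library left out (0.593% to 3.89%). In Sca-1+ tdT- over Sca-1neg tdT-, 5 (5.74%) became 9 with DESeq2 (14.3%), 1 in the 32-week libraries alone (0.0411%), 13 without the liver libraries (9.65%) and 3 to 7 with 1 left out (0.486% to 8.18%). In Sca-1+ tdT+ over Sca-1neg tdT+, 7 (12.7%) became 3 in the 32-week libraries (1.58%), 12 without the liver libraries (10.3%) and 4 to 8 with 1 left out (7.91% to 15.4%). The interaction count of 2 (0.483%) became 0 in the 32-week libraries (0%), 1 without the liver libraries (1.02%) and 0 to 2 with 1 left out (0.106% to 1.71%). Among members called here or under an alternative, signs turned in Sca-1+ tdT+ over Sca-1neg tdT+: without the liver libraries Itga9 was 5.64, Itgb3 4.90 and Itgax 9.57, each against 1 remaining Sca-1neg tdT+ library, and Itgax was 0.64 with the replicate block and ran from -1.38 to 0.47 with 1 library left out (0.17 for Sca-1+ tdT+ replicate 3, 0.47 for the library labelled Sca-1neg tdT+ replicate 2); the cause was not tested. Where 1 library was left in a group, it was assumed to vary like the others. Replicate numbers were not used to pair the libraries in the main fit. Of 15 same-numbered pairs, 7 deviated together with a correlation over 0.1 (from -0.42 to 0.59). Differently numbered pairs ran from -0.60 to 0.51, both ends between Sca-1neg libraries. These values do not settle whether the numbers pair the libraries. With the replicate block, Itga6 in Sca-1+ tdT- over Sca-1neg tdT- had an adjusted p of 0.0530 and Itgb8 in Sca-1+ tdT+ over Sca-1neg tdT+ of 0.0702. Size factors of DESeq2 moved the median of all genes by -0.12 in the interaction and changed no member's side of the threshold. A group of 2 or 3 pools limits what could be called, and members under about 1 CPM rest on few reads.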

Other observations

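Some chains, the epithelial-class Itga9 among them, were higher in the Sca-1neg libraries with liver transcripts than in the other libraries of their group. In the Sca-1neg tdT+ group Itga9 had 24.3 CPM for replicate 1 and 22.9 CPM for the library labelled Sca-1neg tdT+ replicate 2, against 0.0551 CPM for replicate 3, while the Sca-1neg tdT- group had 17.1 CPM for replicate 2, against 2.81 and 1.59 CPM for its replicates 1 and 3. Itgb3 had 4.49 and 9.32 CPM in those 2 Sca-1neg tdT+ libraries, against 0.0551 CPM in replicate 3, while the Sca-1neg tdT- group had 9.89 CPM for replicate 2, against 0.806 and 1.37 CPM for the others. Itgal showed the same order in tdT- cells, with 12.03 CPM for Sca-1neg tdT- replicate 2, against 0.537 CPM in each of replicates 1 and 3. Itga8, Itga11 and Itgax had their highest Sca-1neg tdT- level in replicate 2 as well, at 6.85, 5.26 and 2.99 CPM, but Itga8 had 4.21 and 1.34 CPM in the Sca-1neg tdT+ libraries with liver transcripts, against 3.14 CPM in replicate 3. Itgam did not follow in tdT- cells, with 0.132 CPM for Sca-1neg tdT- replicate 2, against 0.269 and 0.0488 CPM for replicates 1 and 3. The libraries were set apart by their liver transcripts and not by these genes, and no test was made.

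Itga6 was the sort marker of every group and still had 1.23 and 0.81 log2 units more transcript with Sca-1 in tdT+ and in tdT- cells. The summed level of all 33 genes was 4365, 3746 and 4610 CPM with Sca-1 and tdT, 4166 and 4521 CPM for Sca-1+ tdT-, 2623, 3076 and 3130 CPM for Sca-1neg tdT+ and 3556, 3490 and 3322 CPM for Sca-1neg tdT-. No Sca-1neg library reached the lowest Sca-1+ sum. Itga6 is part of these sums, at 932 to 1276 CPM in Sca-1+ libraries and 387 to 615 CPM in Sca-1neg libraries. The lowest Sca-1+ sum, 3746 CPM, held 988 CPM of Itga6, and the highest Sca-1neg sum, 3556 CPM, held 615 CPM. Without Itga6 that Sca-1+ library would lie below that Sca-1neg library, so the sums would overlap. Within each class the sums overlapped between Sca-1+ and Sca-1neg libraries. For epithelial chains the lowest Sca-1+ sum was 2018 CPM and the highest Sca-1neg sum 2096 CPM.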
